A study of Mus musculus with 2 samples.

Results

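The transcripts described here are the TC and NAP entries of a mouse expression array, that is, transcripts known to the array only as assembled sequence fragments. They were chosen by identifier alone: every gene probe whose systematic name starts with TC or NAP followed by digits, with 1 probe counted per probe name. The rule found 1468 probes of the array's 41158 gene probes, 454 of them TC and 1014 NAP, and these carried 1458 different identifiers, 10 of which had more than 1 probe. The 27138 probes for curated RefSeq messenger RNAs, whose accessions start with NM_, served as the comparison. Each probe of either kind was 60 bases long and each TC or NAP probe was a single spot.

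An expressed sequence tag (EST) is a single sequencing read from a complementary DNA clone, and overlapping tags were clustered and assembled to predict transcripts before genomes were annotated. TC stands for tentative consensus, the name that the TIGR gene indices gave to such an assembly. Assemblies of this kind can represent real genes, but also introns of unspliced RNA, alternative ends of known genes, transcripts of the opposite strand and copies of abundant messages. What the letters NAP stand for is not stated in the sources used here. The 2 kinds overlap in their source records, since 372 of the 454 TC probes listed a NAP identifier as well.

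The samples were 2 cultures of expandable hepatoblasts (eHBs), the bipotent progenitor cells of the fetal liver that give rise to hepatocytes and bile duct cells, from the C57BL/6 strain. One was taken at passage 5 and the other at passage 20, and each was hybridised to 1 array. Both were kept on Matrigel or laminin in DMEM/F12 with insulin, transferrin, selenite, nicotinamide, ascorbic acid phosphate and albumin, to which EGF, the GSK3 inhibitor CHIR99021, the TGF-beta receptor inhibitor E-616452, the lipids LPA and S1P, and antibiotics were added. The passages came from separate experiments, so passage and experiment cannot be told apart. With 1 array per passage there is no replicate check, no p-value was computed, and a difference below is a difference between these 2 cultures.

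A level below is the log2 signal of a probe relative to the 75th percentile of all gene probes on the same array, which was 1085 intensity units at passage 5 and 853 at passage 20. A probe counted as measured where the scanner software put it well above background on at least 1 array. Where it did so on only 1 of the arrays, the difference is a lower bound, taken against the higher of the dim probe's own level and the dimmest level well above background on that array (−3.32 at passage 5 and −3.17 at passage 20). Of 118 probes spotted repeatedly and measured on both arrays, the passage difference varied between spots with a median standard deviation of 0.04, rising to 0.16, and at most 0.49, over the 16 probes with mean levels of −3 to −1. These values cover the spot error of 1 pair of arrays and no variation between cultures.

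The cultures carried 6 of 7 hepatoblast markers (not Dlk1) and all 4 biliary markers above background, while neither array showed any of the 4 markers of mature hepatocytes or the 2 endothelial ones well above background. Keratin 18 had levels of 8.62 and 8.79 and Afp levels of 2.55 and 2.64 at passages 5 and 20. Epcam, a hepatoblast surface marker, was lower at passage 20, at −1.33 and −2.50, and the biliary marker Spp1 was higher, at 4.53 and 7.30. The other biliary markers went the other way, with differences of −0.52 for Krt19, −0.40 for Krt7 and −0.51 for Sox9. Stromal and mesothelial markers also differed between the passages. Dcn, a proteoglycan of fibroblasts, had a level of 0.82 at passage 5 and was not well above background at passage 20, and the mesothelial genes Upk3b and Wt1 were also above background at passage 5 only, whereas Msln was bright on both arrays. The other stromal markers, Col1a1 and Des, and the leukocyte marker Ptprc were above background on neither array, and Cd68 was dim on both, at −1.17 and −0.84. The part of these cells in the differences below was not tested.

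Sequences of the TC members on which the passage comparison turned are given first, as the array files hold them, 5′ to 3′, in the build mm9. The first 6 were higher at passage 20 by 2-fold or more and had an NM_ probe on the same strand between 1 and 10 kb away, so that transcript fragment and annotated neighbour could be read side by side. These lay at chr6:128358612-128358671 (minus strand), chr2:51975355-51975414 (plus), chr5:9125318-9125377 (minus), chr5:147106826-147106885 (plus), chr7:52666534-52666596 (plus) and chr15:96256356-96256415 (minus), in the order printed.
TC1646500: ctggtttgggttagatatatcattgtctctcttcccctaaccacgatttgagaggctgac
TC1632596: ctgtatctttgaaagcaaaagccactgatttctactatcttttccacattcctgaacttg
TC1697186: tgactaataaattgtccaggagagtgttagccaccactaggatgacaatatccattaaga
TC1695874: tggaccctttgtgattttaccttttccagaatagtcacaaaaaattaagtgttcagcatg
TC1589973: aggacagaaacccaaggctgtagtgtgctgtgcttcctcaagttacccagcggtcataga
TC1630143: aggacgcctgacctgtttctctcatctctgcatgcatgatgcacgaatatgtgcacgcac

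The next 4 were the TC members with the largest differences on both arrays beyond those 6, at chr4:47396835-47396894 (plus), chr14:76821583-76821642 (plus), chr14:35253684-35253743 (minus) and chr2:155998385-155998444 (minus). The 2 NAP sequences after them were among the most strongly lower members; the array files give no position for the first, and the second lay at chr14:19075224-19075283 (plus).
TC1640144: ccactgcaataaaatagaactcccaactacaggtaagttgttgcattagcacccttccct
TC1668068: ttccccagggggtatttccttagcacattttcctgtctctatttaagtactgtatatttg
TC1779078: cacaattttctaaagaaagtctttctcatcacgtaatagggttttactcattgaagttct
TC1708996: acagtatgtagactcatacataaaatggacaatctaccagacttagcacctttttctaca
NAP046356-1: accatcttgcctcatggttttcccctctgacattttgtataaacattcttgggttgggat
NAP027978-1: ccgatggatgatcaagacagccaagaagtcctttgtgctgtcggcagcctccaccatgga

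A smaller share of TC and NAP transcripts than of annotated messages gave signal well above background. At passage 5, 30.6% of the TC probes and 34.6% of the NAP probes were well above background, against 58.5% of the NM_ probes. At passage 20 the shares were 34.1%, 35.3% and 57.5%. The TC share was thus higher at passage 20 while the NM_ share was slightly lower. Over both passages 551 members were measured, 169 of them TC and 382 NAP, and 452 of these were above background on both arrays. A further 61 members were above background at passage 20 only and 38 at passage 5 only. Among TC probes this split was 30 against 14, among NAP probes 31 against 24, and among NM_ probes 601 against 888. The other 917 members were well above background on neither array.

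The brightness of the 2 kinds differed. The measured TC probes had a median level of −2.05 at passage 5 and −1.39 at passage 20, with the middle of their distribution between −2.98 and −0.75 at passage 5. The measured NAP probes had medians of −0.01 and −0.14, and their upper quartile, 3.21 at passage 5, lay above that of the NM_ probes, at 2.22. Brightness depends on the probe as well as on the transcript, so these levels describe the probes and do not rank abundances. Above a mean level of 1 there were 146 NAP probes and 23 TC probes.

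The 10 brightest members were all NAP transcripts, with levels from 7.05 to 8.69 at passage 5, and none of them differed by more than 1.32-fold between passages. NAP102738-1 was the brightest, at 8.69 and 8.89 at passages 5 and 20. NAP102909-1 followed at 7.86 and 8.05, and NAP027199-1 on the X chromosome at 7.60 and 7.74. These bright fragments therefore held nearly the same level in both cultures. Few bright NM_ probes passed 2-fold either. Above a mean level of 1, 1.19% of them were higher at passage 20 and 2.29% lower.

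**Figure D1:**
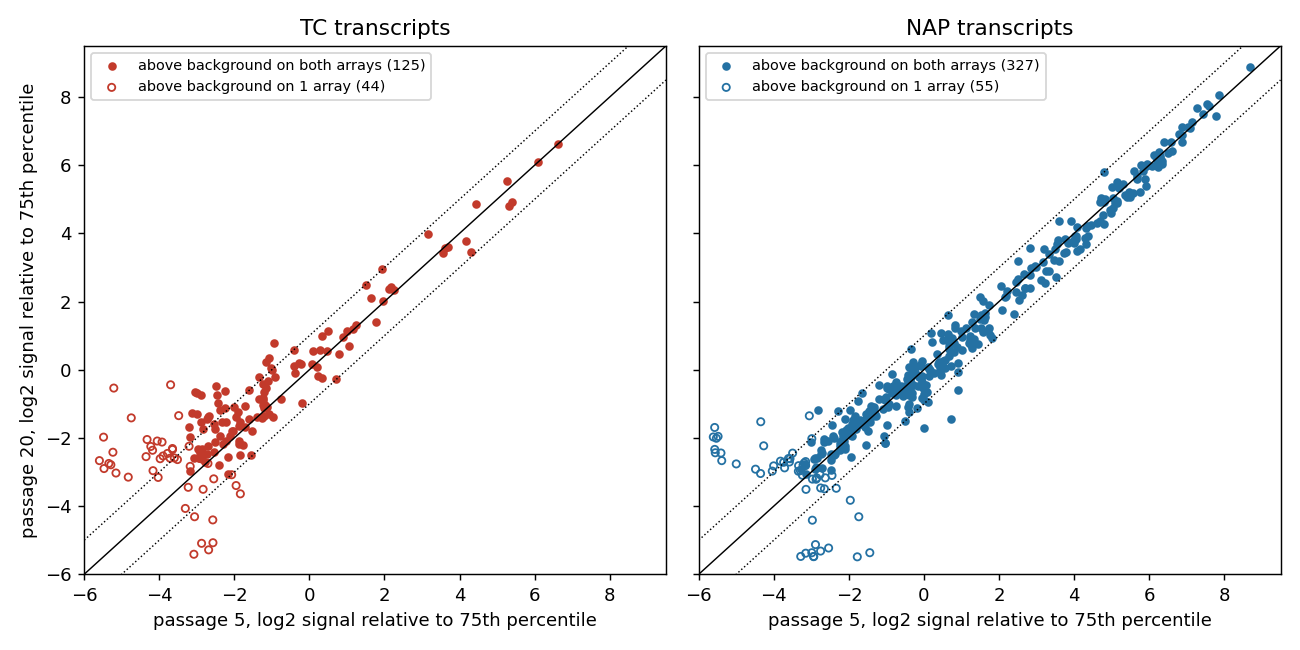
Log2 signal at passage 20 (vertical) against passage 5 (horizontal), relative to each array's 75th percentile, for the 169 TC and 382 NAP probes measured; filled points were well above background on both arrays and open points on 1, the solid line marks equal levels and the dotted lines 2-fold differences. Dim TC points lie mostly above the line of equal levels, while the NAP points follow it up to a level of 8.69.

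The question the design addresses is how hepatoblast cultures at a late passage compare with cultures at an early one. A larger share of TC transcripts than of annotated messages was higher at passage 20. With the levels defined above, this did not hold for NAP transcripts. Of the 169 measured TC probes, 36 (21.3%) were higher at passage 20 by 2-fold or more and 3 (1.78%) lower. Of the 382 measured NAP probes, 10 were higher and 11 lower, or 2.62% and 2.88%. Together 46 of the 551 members were higher and 14 lower, or 8.35% and 2.54%. Over all 20179 measured gene probes, 5.77% were higher and 4.71% lower by the same fold, and over the 16484 measured NM_ probes 3.34% were higher and 5.01% lower. The TC share of higher probes was therefore several times the background, and the NAP shares were below it in both directions at this scaling. Against the NM_ share alone the NAP share of higher probes was above under normexp, at 2.62% and 1.87%, and without a filter on dim probes, at 7.89% and 6.02%. It was also slightly above under median scaling (1.57% and 1.47%), spike-in scaling (1.83% and 1.82%) and no scaling (1.57% and 1.38%). In the other settings it was below.

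The middle of the measured TC distribution was displaced as well as its tail, though not among bright probes. Above a mean level of 1 the median TC difference was 0.04, against 0.08 for NM_. The median TC difference was 0.36 on the log2 scale (quartiles −0.01 and 0.91), against 0.00 for NAP (−0.30 and 0.26), 0.07 for NM_ and 0.10 for all gene probes. Among probes above background on both arrays, 94 of 125 TC probes (75.2%) had a positive difference, compared with 156 of 327 NAP probes (47.7%) and 58.7% of the NM_ probes. Other kinds of probe also had medians above that of NM_. Measured probes for GenBank complementary DNA clones with AK or BC accessions, 1538 in number, had a median difference of 0.45, with 394 higher and 54 lower. The 260 measured NR_ probes, for non-coding RefSeq transcripts, had 0.25, with 26 higher and 12 lower. Among probes above background on both arrays the medians were 0.34 for TC, 0.23 for AK or BC and 0.23 for NR_.

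**Figure D2:**
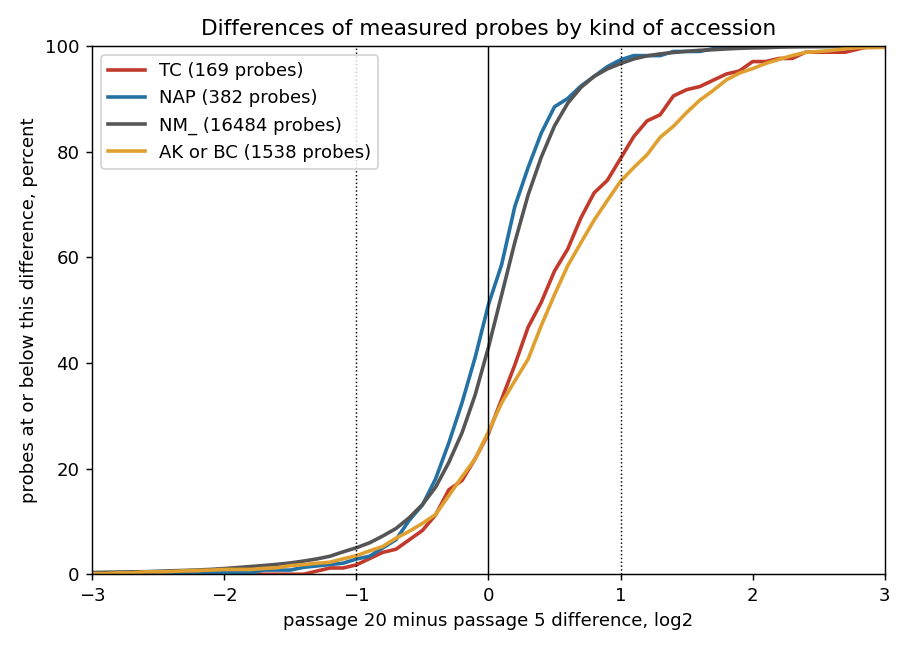
Cumulative share of measured probes (vertical, percent) at or below each passage 20 minus passage 5 difference (horizontal, log2) for TC, NAP, NM_ and AK or BC probes; dotted lines mark 2-fold. The TC and AK or BC curves lie to the right, with medians of 0.36 and 0.45, and the NAP and NM_ curves cross 50% near 0, at 0.00 and 0.07.

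How far the displacement reaches in absolute terms depends on how the arrays were scaled. Scaling to the median of all gene probes moved every difference down, by 0.31 in the median of all probes, and gave 20 TC members higher and 8 lower, and 6 and 25 NAP members. Scaling to the 7 spike-in probes moved the median of all probes by −0.21 and gave 24 and 7 TC members, and 7 and 19 NAP members. Without scaling the shift was −0.35, with 18 and 9 TC members and 6 and 28 NAP members. Background correction with normexp left 21 TC members higher and 0 lower, and 10 and 4 NAP members. The TC median was above the NM_ median by 0.29 in the main setting, a gap that a shift of all probes by one amount cannot change. It was 0.25 under quantile normalization, 0.25 in the deposited values and 0.31 under normexp. With dim probes left in, that gap was 0.03.

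Dim probes vary more between arrays, so the shares were compared within ranges of level. Between mean levels of −3 and −1, 23 of 81 TC probes were higher and 3 lower, or 28.4% and 3.70%, against 7.13% and 8.45% of the 3999 NM_ probes there. Between −1 and 1, 6 of 31 TC probes were higher and 0 lower, against 2.64% and 5.00% of 4662 NM_ probes. Below −3, 6 of 34 TC probes were higher and 0 lower, against 6.25% and 10.2% of the 960 NM_ probes. Probes well above background on both arrays cannot differ by 2-fold there, given the dimmest levels stated above. Each call in that range is therefore a bound from a probe above background on 1 array only, and no comparison is drawn from it. Above 1, where 23 TC probes lay, 1 was higher and 0 lower, and their median difference was 0.04. Between −3 and 1 a larger share of TC than of NM_ probes was thus higher at like levels. This was not particular to TC: 37.3% of AK or BC probes were higher between −3 and −1, and 16.3% between −1 and 1. The bright TC probes were few and close to equal. NAP probes were higher in 4.44% and lower in 4.44% of 90 probes between −3 and −1, and of the 146 above a level of 1 a single one was higher and none lower. The 6863 NM_ probes above a level of 1 were also seldom past 2-fold, with 1.19% higher and 2.29% lower.

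**Figure D3:**
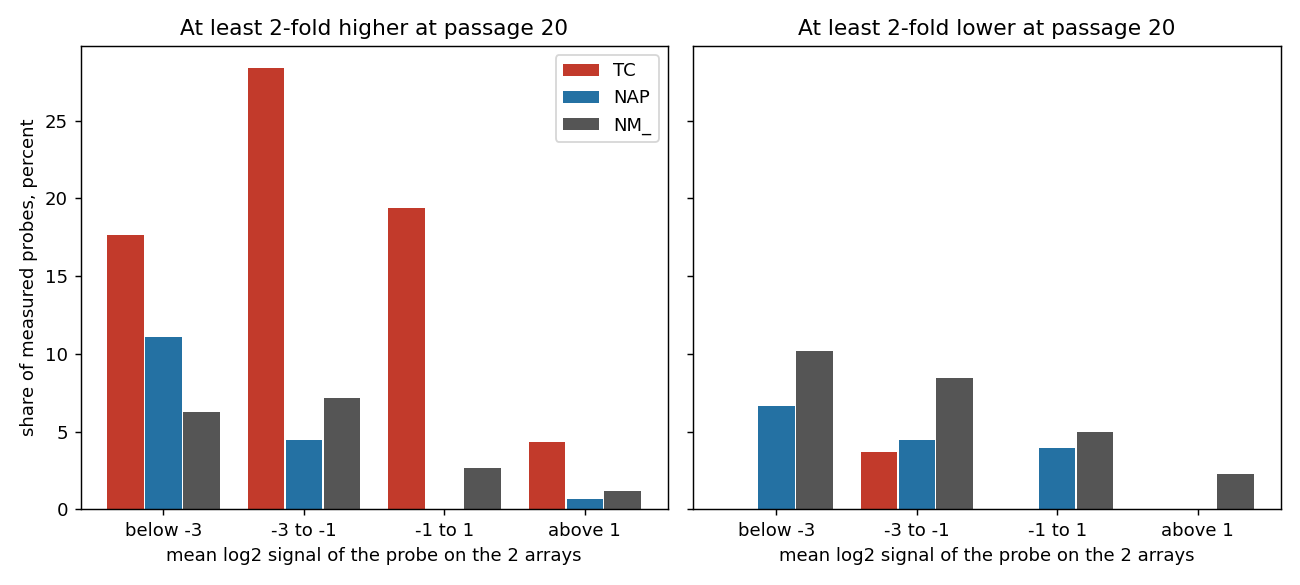
Share of measured probes (vertical, percent) at least 2-fold higher (left) or lower (right) at passage 20, by range of the probe's mean log2 signal (horizontal), for TC, NAP and NM_ probes. TC bars exceed the NM_ bars in the higher panel in every range, reaching 28.4% between −3 and −1, and TC bars in the lower panel appear in that range only, at 3.70%. Below −3 every 2-fold call is a bound from a probe above background on 1 array only.

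The differences were also set beside the base composition of the probes. Among NM_ probes the median difference was 0.12 where G and C made up less than 40% of the bases, 0.07 from 40% to 50% and −0.05 at 50% or more. The TC medians in the same ranges were 0.55, 0.30 and 0.36, over 54, 81 and 34 probes. The NAP medians were 0.03, −0.01 and 0.00. The AK or BC medians were 0.53, 0.37 and 0.00, the last over 123 probes. Levels were not matched in these ranges, and the part of base composition in the differences was not tested.

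The TC members with the largest differences on both arrays are dim at passage 5 and of middle brightness at passage 20. TC1632596 had levels of −3.05 at passage 5 and −0.66 at passage 20, a difference of 2.39, or 5.25-fold. TC1697186 had levels of −2.99 and −0.67 (4.97-fold). TC1640144, which the array describes as a match to the TGF-beta receptor type 1, the receptor kinase that the culture's inhibitor E-616452 is directed against, had levels of −2.89 and −0.73 (4.46-fold). All 3 sat close to the detection limit at passage 5. TC1668068 on chromosome 14 had levels of −2.48 and −0.48 (3.99-fold), and TC1779078 on the same chromosome −3.13 and −1.26 (3.65-fold). TC1708996, described as the Rnpc2 protein, now named Rbm39, an RNA-binding splicing factor, was brighter, at −0.96 and 0.80 (3.37-fold). The remaining members of the 10 largest were TC1642797 (3.28-fold), TC1630266 (3.24-fold), NAP050849-1 (3.13-fold) and TC1653151 (3.07-fold). NAP050849-1 was the sole NAP transcript among them. Background correction with normexp gave smaller folds for these dim probes, of 2.61 for TC1632596, 2.74 for TC1697186, 2.89 for TC1640144, 2.07 for TC1630266 and 2.04 for NAP050849-1.

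Some members were above background at passage 20 only, which gives a bound. TC1677098 was at −3.70 and −0.44 and was at least 7.35-fold higher. Its description cites a sequence warning entry for the human Alu repeat family. TC1646500 was at −5.21 and −0.54 and was at least 6.88-fold higher. TC1620718, described as a fragment of Vps41, a subunit of the HOPS tethering complex of lysosomes, was at least 3.93-fold higher, and TC1695874, described as Cdk8, the kinase of the Mediator complex, at least 3.75-fold higher. NAP038153-1 on the X chromosome was at least 3.47-fold higher. None of these was well above background at passage 5. Under normexp the folds were 3.96 for TC1677098, 2.35 for TC1620718 and 2.15 for TC1695874, so the bounds depend on the background correction. All 19 named members that were higher by 2-fold or more remained past 2-fold under normexp.

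Of the 14 lower members 11 were NAP transcripts, which also made up 382 of the 551 measured members. The lower share was 2.88% of NAP and 1.78% of TC probes, against 4.71% of all gene probes. NAP046356-1 had levels of 0.73 at passage 5 and −1.45 at passage 20, a difference of −2.19, and was 4.55-fold lower. NAP098046-001 had levels of −0.00 and −1.71 (3.26-fold lower), and NAP027978-1 of 0.90 and −0.58 (2.80-fold lower). These were of middle brightness at passage 5, unlike the TC members that were higher. NAP026604-1, NAP057951-1, NAP028816-1 and NAP102794-1 were between 2.03-fold and 2.15-fold lower. Among members above background on both arrays these 7 were all that passed 2-fold in this direction, and no TC member did. Of those seen at passage 5 only, NAP123520-1 was at least 3.32-fold lower, NAP028254-1 at least 2.71-fold and NAP108468-1 at least 2.63-fold. Of the 12 named members lower by 2-fold or more, 4 remained so under normexp. There NAP026604-1, NAP057951-1, NAP028816-1 and NAP102794-1 were 1.38-fold, 1.34-fold, 1.74-fold and 1.63-fold lower, and NAP028254-1 and NAP108468-1 were 1.78-fold and 1.94-fold lower.

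The TC members lowest at passage 20 include 2 fragments of one ribosomal protein gene. TC1603713 and TC1669390 are both described as partial matches to ribosomal protein L3, and lay 461 and 877 bases from the Rpl3 NM_ probe on the same strand. TC1603713 had levels of 0.71 and −0.28 (1.97-fold lower), and TC1669390 was above background at passage 5 only and at least 2.33-fold lower. A further fragment there, TC1665419, chosen after its values were seen, lay 1681 bases away and had levels of 3.69 and 3.61. The Rpl3 NM_ probe itself was at 6.58 and 6.39, so 4 probes at this locus gave differences from −1.22 to −0.08. TC1643420, described as a regulatory B″ subunit of protein phosphatase 2, was at least 2.52-fold lower. Under normexp TC1669390 and TC1643420 were 1.44-fold and 1.49-fold lower, short of 2-fold.

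Of the 454 TC probes, 301 have a match in the array's description and the rest are described as unknown. The 116 measured probes with a match had a median difference of 0.35, with 23 higher and 3 lower, and the 53 without had 0.45, with 13 higher and 0 lower. Where the match covered up to 10% of the protein or transcript named, the median was 0.48 over 40 probes. It was 0.40 over 50 probes with a match of 11% to 50%, and 0.24 over 25 probes with a match of over 50%. Brightness moved with this order, with median levels at passage 5 of −2.28, −1.34 and −0.21, and its part in it was not tested. TC1589973, described as the complete voltage-gated potassium channel Kv1.7, had levels of −3.20 and −1.67 (2.88-fold). TC1687340, whose description cites another assembly and a member of the NOL1/NOP2/Sun family of RNA methyltransferases, had levels of −1.08 and 0.35 (2.70-fold). Probes that also list a NAP identifier had a median of 0.36 over 141, and those without had 0.44 over 28. All 1014 NAP probes are described as unknown.

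The array files place 1150 of the 1468 members on a chromosome of mm9 and leave 318 without a single chromosome position, 38 of them TC and 280 NAP. The 151 placed and measured TC probes had a median difference of 0.42 with 35 higher, whereas the 18 without a position had 0.03 with 1 higher. These differed in brightness too, with median levels at passage 5 of −2.23 and −0.86. NAP probes showed no such split, at −0.01 over 267 placed and 0.07 over 115 others. None lay on the Y chromosome. Exon, intron and UTR annotation of these positions was not analysed here, and position is given relative to NM_ probes only.

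Beside an annotated neighbour on the same strand, TC fragments differed more between passages than the neighbour did. An NM_ probe lay within 10 kb on the same strand of 188 TC members, and in 75 of these pairs both probes were measured. The TC probes had a median difference of 0.45, with 19 higher and 2 lower, and the NM_ probes −0.01, with 2 higher and 2 lower. The TC difference was above that of its neighbour in 52 of the 75 pairs. In 0 pairs did both probes pass 2-fold in the same direction. With only 2 NM_ probes higher and 2 lower, few such pairs could arise, and nothing is drawn from that count. The nearest NM_ probe is not always that of the host gene. Many TC probes were much dimmer than their neighbour. Brightness was not matched within the pairs, and its part in this contrast was not tested. Extending the window to 50 kb, an alternative chosen after seeing the data, gave 113 pairs with medians of 0.42 and 0.09 and with 27 TC probes higher against 3.

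Of the 19 TC probes higher in the 75 same-strand pairs within 10 kb, 15 lay upstream of their neighbour's probe, as did 43 of the pairs. In 43 pairs the TC probe lay 5′ of the NM_ probe in the direction of transcription, and there the TC median was 0.57 with 15 higher and 1 lower, against 0.04 for the NM_ probes. In the 32 pairs where it lay 3′, the TC median was 0.20 with 4 higher and 1 lower, against −0.19. Brightness was not matched between these positions, and its part in the split was not tested. Array probes for messenger RNAs are usually placed near the 3′ end of the message.

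**Figure D4:**
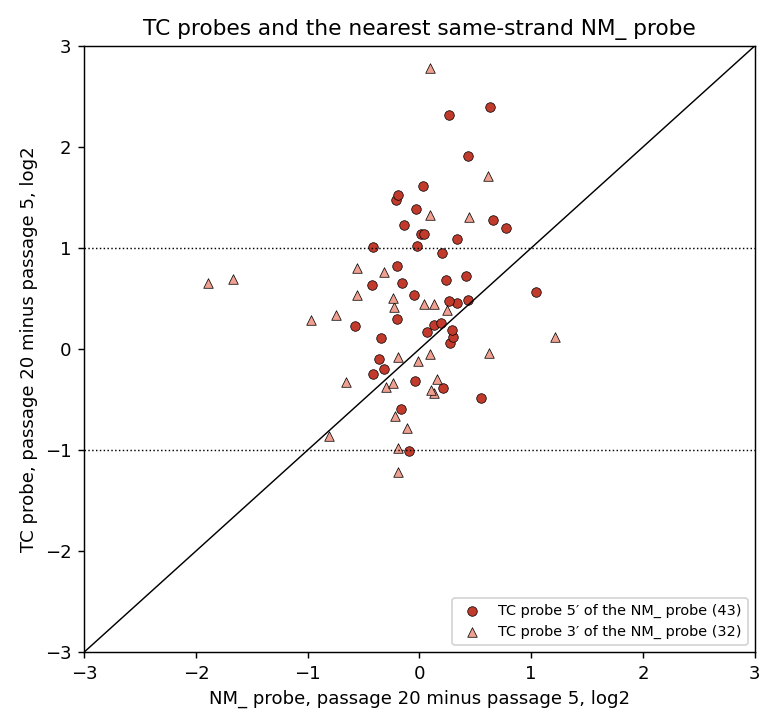
Passage 20 minus passage 5 difference (log2) of the TC probe (vertical) against that of the nearest same-strand NM_ probe within 10 kb (horizontal) for the 75 pairs with both measured; circles are TC probes 5′ and triangles 3′ of the NM_ probe, the solid line marks equality and dotted lines 2-fold. Most points, 52 of 75, lie above the line, and the NM_ differences stay mostly within 1 of 0.

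The pairs with the largest TC differences show the contrast gene by gene. TC1632596 lay 1812 bases from the probe of Rif1, a regulator of replication timing and DNA repair, whose levels were −0.66 and −0.03, a difference of 0.63 against 2.39 for the fragment. TC1697186 lay 5480 bases from the probe of Dmtf1, a transcription factor that activates the Arf tumour suppressor, at −1.03 and −0.76, a difference of 0.26 against 2.31. TC1695874 lay 6737 bases from the Cdk8 probe, at 1.72 and 2.16. In each case annotated neighbour and fragment were higher at passage 20 at this scaling, the fragment by more. The Dmtf1 difference of 0.26 was smaller than the downward shift of 0.31 under median scaling, so its direction depends on the scaling. TC1646500 lay 1160 bases from the probe of Itfg2, at −0.25 and −0.16, and 8483 bases from the opposite-strand probe of Nrip2, which was well above background on neither array. TC1642797 lay 713 bases from the Prrc2c probe, whose difference was 0.61 against 1.71. TC1589973 lay 5162 bases from a probe of the neurotrophin gene Ntf5, and TC1630143 lay 1092 bases from Scaf11, at −0.94 and −1.15 against −2.44 and −0.96 for the fragment. For those last 2 the neighbour's difference was below 0. TC1630143 was chosen after its values were seen, and its fold under normexp was 1.91.

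Several such fragments lay next to a very bright probe and were themselves dim. TC1653151 lay 10 bases 5′ of the probe for Atp5c1, a subunit of the mitochondrial ATP synthase, and had levels of −2.25 and −0.64 where the Atp5c1 probe had 6.41 and 6.44. TC1693899 lay 255 bases from the Rps26 probe and had −2.26 and −1.12, against 7.51 and 7.54. TC1682954 lay 61 bases from that of Hsp90b1, an endoplasmic reticulum chaperone, and had −1.34 and −0.20, against 5.81 and 5.83. In these 3 pairs the fragment was higher at passage 20 by 1.62, 1.14 and 1.14 on the log2 scale while the adjacent probe differed by 0.04 or less. Under normexp the fragments' differences were 1.16, 0.86 and 0.89, and without scaling 1.27, 0.79 and 0.79, so TC1693899 and TC1682954 fell short of 2-fold there. TC1682312, 174 bases from Rplp0, had −2.55 and −1.60, a difference of 0.95 against 0.20. These were singled out after their values were seen.

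Other pairs went together or in opposite directions. TC1660970 lay 130 bases from the probe of Actg1, cytoplasmic gamma actin, and both were lower at passage 20, by 0.86 and 0.81 on the log2 scale. TC1662565 lay 777 bases from that of Aldh2, the mitochondrial aldehyde dehydrogenase, and had levels of 0.34 and 0.99 while Aldh2 had 4.03 and 2.13. TC1733503 lay 843 bases from Ppp1r15a, a regulator of the stress response, and had −0.92 and −0.23 while Ppp1r15a had 0.37 and −1.30. The last 2 pairs moved apart by more than 2 log2 units; these 3 were also chosen after their values were seen.

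NAP fragments beside annotated genes followed the background. Of 155 with a same-strand NM_ probe within 10 kb, 35 pairs were measured, with medians of 0.07 for NAP and 0.09 for NM_, and 2 of these pairs passed 2-fold in the same direction. Both were overlapping probes. NAP098046-001 overlaps the probe of Egfl7, a secreted factor of blood vessels, and was 1.70 lower on the log2 scale where Egfl7 went from 0.92 to −0.78. NAP026604-1 overlaps that of Habp2, a plasma protease. NAP038153-1 lay 8367 bases from Xiap, an inhibitor of apoptosis, which was above background at passage 5 only while the fragment was so at passage 20 only.

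On the opposite strand there were 71 TC and 95 NAP members with an NM_ probe within 10 kb. In 20 measured TC pairs the medians were 0.45 for TC and 0.12 for NM_, with 5 TC probes and 0 NM_ probes higher. Within 50 kb, a window chosen after seeing the data, the medians were 0.25 and 0.16 over 55 pairs, and the TC difference was the larger in 29 of them. In 30 measured NAP pairs the medians were −0.11 and −0.03. Brightness was not matched within these opposite-strand pairs either. TC1715877, 9032 bases from the opposite-strand probe of Hpgds, had levels of −2.70 and −1.37 against −2.96 and −2.27. Its difference of 1.33 was 0.98 without scaling. NAP057049-1 was above background at passage 20 only and at least 3.09-fold higher, near the probe of an olfactory receptor, Olfr862, that was above background on neither array. TC1697186, met above beside Dmtf1, lay 6603 bases from opposite-strand Tmem243, whose difference was 0.48. NAP098046-001 lay 1092 bases from opposite-strand Agpat2, which went from 0.40 to −0.51.

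Some NAP probes share bases with the probe of an annotated message. An exact run of 20 or more bases, in the same orientation, was shared with an NM_ probe by 42 NAP probes and 4 TC probes. In the 24 NAP pairs with both probes measured, the differences of the pair were apart by a median of 0.10, and by less than 0.5 in 23 of 24. Most measured probes differed little in any case, with quartiles of −0.30 and 0.26 for NAP and −0.23 and 0.34 for NM_. Pairs without shared bases were not set beside these. NAP028872-1 shares 34 bases with Zfp982, a zinc finger gene, and the differences were 0.89 and 0.92. NAP026604-1 shares 40 bases with Habp2, and was lower by 1.10 on the log2 scale against a bound of −1.14. How much of a fragment probe's signal came from the message it shares bases with was not tested. In 4 further pairs the NM_ probe was measured and the NAP probe was not.

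The runs include several with probes of ribosomal protein genes, named here after their values were seen. The Rpl17 probe is the partner of 5 of them: these share 20 to 37 bases with it. It had levels of 7.47 and 7.57, and their own levels at passage 5 ranged from −2.40 to 6.57. NAP030482-1 of this group was the exception in its difference, at −0.63 against 0.10 for Rpl17. NAP093365-001 shares 20 bases with Rpl32 and had 7.54 and 7.78 where Rpl32 had 7.54 and 7.72. NAP030187-1 shares 20 bases with Rps2 and had 7.79 and 7.45. Both are among the 10 brightest members, and the other 8 shared no run of that length with an NM_ probe. The 967 NAP probes that share no such run in either orientation include 356 measured probes.

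**Figure D5:**
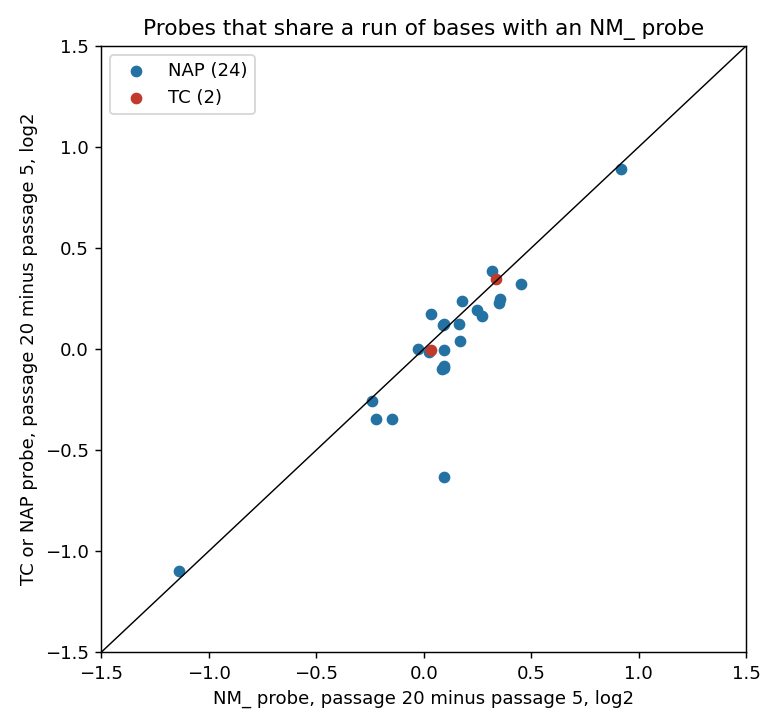
Passage 20 minus passage 5 difference (log2) of NAP and TC probes (vertical) against that of the NM_ probe with which they share a same-orientation run of at least 20 bases (horizontal), for the 24 NAP and 2 TC pairs with both measured; the line marks equality. The points lie along the line, with a median gap of 0.10 for NAP, apart from 1 pair with a gap of 0.73. Most of these differences were small for both probes.

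In the opposite orientation, 5 NAP and 4 TC probes hold a run complementary to an NM_ probe, which reads the other strand of that message. NAP124154-1 is complementary over 38 bases to the probe of Mt2, a metal-binding metallothionein that went from 6.59 to 4.81, and was itself well above background on neither array. NAP030020-1 is complementary over 46 bases to Eef1b2, a translation elongation factor subunit at 7.11 at passage 20, and had a level of −0.79 there. TC1721764 is complementary over 35 bases to Rpl35, at 6.95 and 7.12, and had 2.18 and 2.42. Brightness depends on the probe, so these levels do not compare the strands.

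Within the members, one TC probe reads the strand opposite to 2 bright ones. The capitals in the sequences below mark the bases through which TC1622094 is complementary to the others: 23 bases shared with NAP026077-1 and 28 bases, which overlap these, shared with TC1666682. TC1622094 is placed at chrX:149344411-149344470 (plus strand) and NAP026077-1 at chrX:39276763-39276822 (minus); the array files give no position for TC1666682.
TC1622094: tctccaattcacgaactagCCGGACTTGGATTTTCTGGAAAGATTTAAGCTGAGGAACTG
NAP026077-1: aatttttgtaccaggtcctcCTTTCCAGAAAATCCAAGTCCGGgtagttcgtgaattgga
TC1666682: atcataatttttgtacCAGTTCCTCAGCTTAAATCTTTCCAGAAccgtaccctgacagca

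TC1666682 had levels of 6.62 at both passages and NAP026077-1 of 6.07 and 5.97, whereas TC1622094, the opposite strand, had −1.86 and −1.52. The bright pair differed between passages by 0.10 or less, and the dim one by 0.34.

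Against the RefSeq promoter windows of GRCm38.p6, which run from 250 bases before to 50 after each gene's start, 7 members matched over all 60 bases, and 1 of these was measured. NAP048481-1 matches the promoter window of Cmah, a sialic acid hydroxylase, on the strand opposite to the gene. It was above background at passage 20 only, with levels of −5.53 and −2.01, and was at least 2.48-fold higher. This bound, 1.31 on the log2 scale, was 1.00 under median scaling and 0.96 without scaling.

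Where 1 identifier had 2 probes, the probes did not always give the same value. NAP027922-1 had levels of 3.61 and 3.18 by one probe and 0.10 and 0.08 by the other, 414 bases away. NAP058846-1 had differences of −0.88 and −0.26. NAP100137-001 was above background at passage 20 by one probe and on neither array by the other. For 6 of the 10 identifiers neither probe was well above background on any array.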

How the data were processed

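Per the labels' protocols, amplified Cy3-labelled RNA of each culture was put on its own 1-colour Agilent mouse array. Per the file headers, the intensity of each spot comes from Feature Extraction software, version 10.7.3.1, which subtracted background and removed spatial trends before the files were deposited. A second file of log2 values, deposited by the authors, had column medians of 6.32 and 6.32; its tool and normalization are not given in the sources used here, its centring and direction are not stated, and it served as an alternative only.

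Control spots and spots with an outlier flag on either array were left out. For each probe the mean log2 intensity of its spots was taken, less the 75th percentile of the gene probes on that array. 0 gene probes were saturated. Accessions named 26806 of 27138 NM_ probes through RefSeq (GRCm38.p6); the positions are those of the array files in mm9. Neighbours were sought within 10 kb, and shared runs by exact matches of at least 20 bases. The steps were tested on simulated data. Python 3.11.15 with pandas 2.3.3, and R 4.3.3 with limma 3.58.1 for the normexp correction, were used.

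The number of arrays, 1 per passage, limits the precision. Alternatives changed the scaling, background correction, values, filter, outlier spots and fold threshold. Members named are those with the 10 largest differences in each direction on both arrays, the 5 largest bounds in each direction, the 10 highest levels, the 5 largest differences beside an NM_ probe on either strand, and the 10 largest among those with a described match; the text says where others were chosen after their values were seen. Other members appear as examples of a neighbouring gene, a shared run, a promoter match or a repeated identifier. The members and lists were chosen with earlier results of these data known.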

Additional observations from a re-analysis of the deposited data

How the results depend on the processing

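Values are given as TC and NAP members together, then TC, then NAP, for results that moved from 46, 36 and 10 members at least 2-fold higher, 14, 3 and 11 lower, and median differences of 0.094, 0.36 and −0.0020; the results for TC and NAP apart were added after seeing the data. Quantile normalization gave medians of 0.0072, 0.26 and −0.083 and 6 TC members lower. Median scaling gave 26, 20 and 6 higher, 33, 8 and 25 lower, and medians of −0.21, 0.052 and −0.31, with 44.1% of the 2-fold members higher in place of 76.7%. The 75th percentile over probes well above background on both arrays gave medians of 0.053, 0.32 and −0.043. Spike-in scaling gave 26, 7 and 19 lower, medians of −0.11, 0.15 and −0.21, and a share of 54.4%. No scaling gave 24, 18 and 6 higher, 37, 9 and 28 lower, medians of −0.25, 0.016 and −0.35, and a share of 39.3%. Normexp gave 21 TC members higher, 4, 0 and 4 lower, a NAP median of 0.010 and a share of 88.6%. The deposited log2 values gave medians of 0.026, 0.27 and −0.073 and 5 TC members lower. Requiring signal on both arrays gave 29 members higher, 3 of them NAP, and 7, 0 and 7 lower. Without a filter on dim probes there were 174, 94 and 80 higher, 49, 13 and 36 lower, and medians of 0.16, 0.18 and 0.15. Keeping outlier spots gave a NAP median of 0.0006. At 1.5-fold there were 104, 65 and 39 higher and 52, 12 and 40 lower, and at 4-fold 5, 5 and 0 higher and 1, 0 and 1 lower. A more lenient software flag, signal positive and significant, gave 1001 members measured in place of 551. Changes under other scalings follow from a shift of all probes by one amount, fewer or more members under a filter or threshold follow from its construction, and the cause of the other changes was not tested. The NM_ probes had 392 higher and 982 lower under quantile normalization, 242 and 1453 under median scaling, 300 and 1219 with spike-in scaling, 228 and 1568 without scaling, and 400 and 977 in the deposited values, in place of 550 and 826. Among the 44 named members, sign changes under the 7 scalings, corrections or deposited values were sought only in those at least 2-fold. None was found, but scalings that shift all probes by at most 0.35 cannot reverse such a difference. Only quantile normalization, normexp and the deposited values could have done so. Of the named members past 2-fold, all 19 higher ones and 4 of the 12 lower ones remained so under normexp, where the fold shrank by over 1.5 times for 8 and 5 of them. No paired analysis was possible because each passage had 1 array and the result comes from no test. Members near background are limited by signal, since 99 of the 551 were above it on 1 array only.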
